A study of Homo sapiens with 60 samples.

Results

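The 10 genes described here are STAT3, the kinases JAK1 and JAK2, the suppressors SOCS1, SOCS2 and SOCS3, and the receptor genes IL6ST, IL6R, LIFR and OSMR. They were taken as a list of pathway genes by name, 10 of the 19712 genes in the deposited tables, and all 10 passed the filter on low counts in each fit. Their RNA was measured in 4 EGFR-mutant non-small cell lung cancer (NSCLC) lines, PC9, HCC827, H1975 and HCC2935, with 5 arms of 3 biological replicates each, which gave 60 RNA-seq libraries in 20 groups. The DMSO arm was grown without drug for 21 days and then received the vehicle for 24 h, and the acute arm was grown in the same way and then received 500 nM osimertinib, an EGFR inhibitor active against the T790M resistance mutation, for 24 h. Drug-tolerant persisters (DTPs) are the cells left after 21 days in 500 nM osimertinib. Short washout cells are DTPs that were rinsed and kept without drug for 24 h. Long washout cells are described as DTPs kept without drug until growth resumed. That time is given as 7 days in PC9, 3 days in H1975, 4 days in HCC827 and 10 days in HCC2935. This arm thus has a different length in each line. Every arm is an established cell line grown alone in culture, without the stroma and immune cells of a tumour. DTPs are also what survived, and in RNA of a whole culture a gene that changed in each cell cannot be told apart from a loss of the cells that had less or more of it.

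IL6ST encodes gp130, the signalling chain shared by the receptors of the interleukin-6 cytokine family. IL6R, LIFR and OSMR encode chains that pair with gp130 and decide which cytokine is bound, so that interleukin-6 needs IL6R, leukaemia inhibitory factor needs LIFR, and oncostatin M needs OSMR or LIFR. Ligand binding brings together JAK kinases held by the receptor tails, chiefly JAK1, with JAK2 alongside it. The kinases phosphorylate the transcription factor STAT3, which then enters the nucleus and activates its target genes. SOCS1 and SOCS3 are feedback proteins of this pathway that block JAK kinases, and SOCS3 acts at gp130 itself, while SOCS2 is known best as a brake on growth hormone signalling. In EGFR-mutant lung cancer, STAT3 activity through gp130 and JAK1 is known as a route by which cells go on signalling while EGFR is inhibited. The RNA level of a gene here says nothing about the phosphorylation of its protein, which is where this pathway is switched.

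The libraries held 17.7 to 49.1 M estimated counts each (median 30.1 M), and were shallower in HCC827 and HCC2935 than in PC9 and H1975. All 5 epithelial markers in the tables (EPCAM, KRT8, KRT18, KRT19 and CDH1) reached 1 TPM in each line, and their sum lay between 1636 and 13641 TPM, against at most 21.6 TPM for 6 haematopoietic markers, 22.4 TPM for 4 endothelial markers and 207 TPM for 5 fibroblast markers. DUSP6, a feedback phosphatase of ERK signalling read as a check of the drug, changed under acute osimertinib by -5.999, -3.40, -3.57 and -5.52 on the log2 scale in PC9, HCC827, H1975 and HCC2935. In DTPs of HCC827 its change was -0.34 (adjusted p = 0.480), against falls of 4.82, 2.90 and 3.73 in PC9, H1975 and HCC2935. DUSP6 was 1 of 8 ERK response genes listed, of which 1 rose and 3 fell in HCC827 DTPs (median log2 fold change -0.65). SPRY4, another of the 8, changed by -0.96 in HCC827 DTPs (edgeR, adjusted p = 0.0768). MKI67, a proliferation marker, was lower in DTPs by 1.46, 1.46, 1.71 and 2.35 in the same order of lines. From DTPs to long washout it rose by 1.12 in PC9 and 1.55 in HCC2935 (edgeR, adjusted p = 0.0262 and 0.0264). It changed by -0.01 in HCC827 and -0.32 in H1975 (adjusted p = 0.9998 and 0.984), and stood there at -1.49 and -2.04 against DMSO. A recovery of MKI67 was thus not shown in HCC827 and H1975. In long washout against DMSO, DUSP6 was at -3.17, 0.57, -3.06 and -2.99 in the same order. SPRY4 was at -2.41, -0.68, -4.15 and -1.35 there, and in HCC827 it did not pass the threshold (edgeR, adjusted p = 0.182). The part of drug response and growth arrest in the changes below was not tested. HCC827 DTP replicate 1, HCC827 short washout replicate 1 and PC9 long washout replicate 3 stood apart from the other libraries of their groups, with a correlation over 0.01 below that between the other 2. Of 60 member changes fitted again without them, 2 gained a call and 0 lost one. Both gains were in PC9 long washout against DTPs and are given below, and the HCC827 values are printed with all libraries in.

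All positions are those of GENCODE release 29 on GRCh38, joined by gene symbol, since the deposited tables carry no coordinates. STAT3 lies at chr17:42313324-42388568, minus strand, SOCS3 at chr17:78356778-78360077, minus strand and SOCS1 at chr16:11254405-11256200, minus strand. JAK1 lies at chr1:64833229-64966504, minus strand, JAK2 at chr9:4984390-5128183, plus strand and SOCS2 at chr12:93569814-93583487, plus strand. IL6ST lies at chr5:55935095-55994993, minus strand, IL6R at chr1:154405193-154469450, plus strand, LIFR at chr5:38474963-38608354, minus strand, and OSMR, on the same chromosome as LIFR, at chr5:38845858-38945596, plus strand. Only STAT3 and SOCS3 overlap no other annotated gene. No source used here says whether reads were assigned by strand, so reads of SOCS1 and RMI2, SOCS2 and SOCS2-AS1, IL6R and IL6R-AS1, LIFR and LIFR-AS1, OSMR and RICTOR, JAK1 and RAVER2, or JAK2 and INSL6 cannot be told apart where the transcripts of such a pair overlap. SOCS2, IL6R and IL6ST also have annotated pseudogenes that could share their reads.

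Under DMSO, the 4 lines differed in all 10 genes (edgeR quasi-likelihood test over the 12 DMSO libraries, Benjamini-Hochberg adjusted), and so did 91.2% of all genes tested. Compared per length, gp130, OSMR, JAK1 and STAT3 were the abundant members and the other receptor chains, JAK2 and the SOCS genes were lower. STAT3 stood at 35.7 ± 3.32 TPM in PC9 and 94.1 ± 1.14 TPM in HCC2935 (mean ± SD, n = 3), and IL6ST at 46.8 ± 2.25 TPM in H1975 to 69.1 ± 5.28 TPM in HCC827. JAK1 was at 131 ± 1.21 TPM in HCC827, where JAK2 was at 2.48 ± 0.481 TPM. IL6R, which decides whether a cell can bind interleukin-6 by itself, was at 1.07 ± 0.372 TPM in PC9 and at 9.38 ± 0.835 TPM in HCC827, a 7.96-fold difference in the count fit. LIFR was at 13.2 ± 1.39 TPM in H1975 and at 2.13 ± 0.146 TPM in PC9, 5.11-fold apart. SOCS1 and SOCS2 differed most, since SOCS1 was at 19.4 ± 1.5 TPM in HCC2935 and 0.748 ± 0.152 TPM in HCC827 (21.8-fold), and SOCS2 at 18.6 ± 3.08 TPM in HCC827 and 2.03 ± 0.35 TPM in H1975 (9.97-fold).

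**Figure D1:**
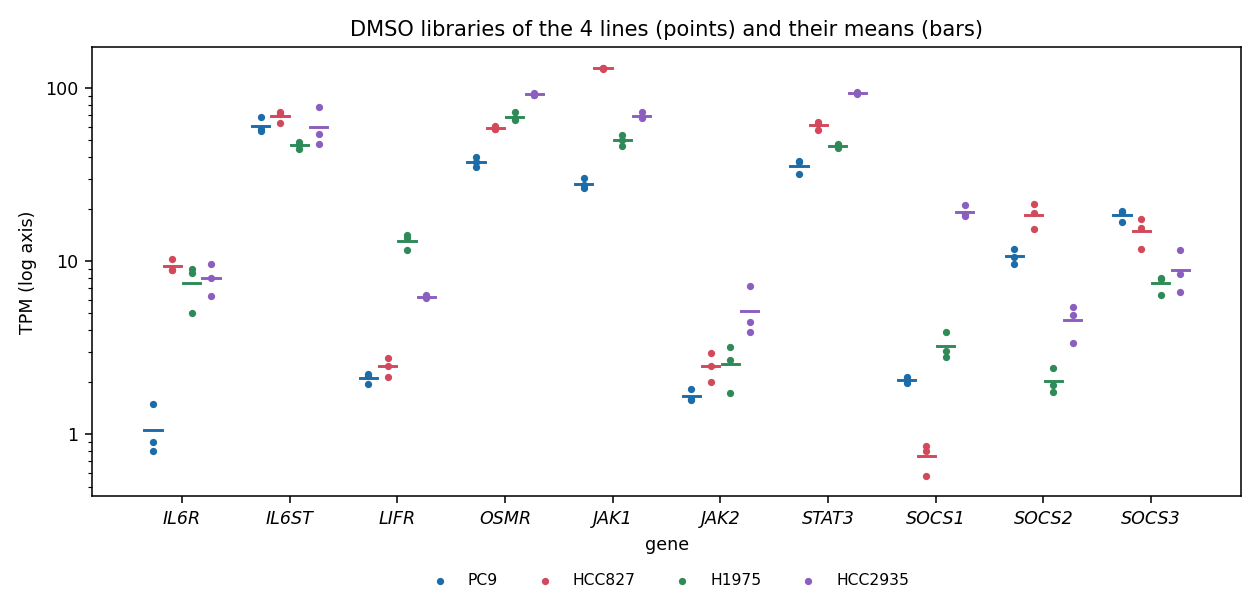
TPM (log axis) of each of the 10 genes in the 12 DMSO libraries, with 1 point per library, a bar at the mean of 3 and 1 colour per line. STAT3, JAK1, IL6ST and OSMR sit above the other 6 genes in every line, while SOCS1 spans 0.748 TPM in HCC827 to 19.4 TPM in HCC2935.

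The order of the lines was read from the counts, in tests of each pair of lines that called 57.3% of all genes for H1975 against HCC827, 64.5% for H1975 against PC9, 67% for HCC2935 against H1975, 66.4% for HCC2935 against HCC827, 69.1% for HCC2935 against PC9 and 64% for HCC827 against PC9. It was different for almost every member. STAT3 was highest in HCC2935, then HCC827, and H1975 and PC9 were not apart beyond their spread (adjusted p = 0.285). JAK1 ran from HCC827 through HCC2935 and H1975 to PC9 with each neighbouring pair apart. JAK2 was highest in HCC2935, and the other 3 lines were not told apart (adjusted p 0.205 to 0.819). SOCS1 was highest in HCC2935 and lowest in HCC827, with H1975 and PC9 between them and not apart (adjusted p = 0.146). SOCS2 went down from HCC827 to PC9, HCC2935 and H1975, each apart from the next. SOCS3 was higher in PC9 and HCC827, a pair not told apart (adjusted p = 0.0633), than in HCC2935 and H1975, also not told apart (adjusted p = 0.636). IL6R was lower in PC9 than in the other 3 lines, which were not told apart among themselves (adjusted p 0.106 to 0.877). IL6ST was higher in HCC827 and PC9 (adjusted p = 0.827 between them) than in HCC2935 and H1975 (adjusted p = 0.210). LIFR was highest in H1975, then HCC2935, with HCC827 and PC9 not apart (adjusted p = 0.662), and OSMR was highest in HCC2935 and lowest in PC9, with H1975 and HCC827 not apart (adjusted p = 0.330).

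Comparing the arms within each line asked how these genes respond to the drug, whether the response is kept in DTPs, and whether it goes back once the drug is removed. Acute osimertinib changed 6 members in PC9, 3 in HCC827, 5 in H1975 and 3 in HCC2935, where the same test called 68.5%, 42.3%, 44.9% and 47.1% of all genes. DTPs differed from DMSO in 9, 3, 8 and 6 members in the same order of lines, beside 71.3%, 36.7%, 45.7% and 52.5% of all genes. Of the 26 changes called in DTPs, 19 were rises and 7 were falls, and with limma on log2 TPM the split was 20 to 4. These 26 count the same genes in several lines. Among all genes called there, rises were 5095 of 10253 in PC9, 2703 of 5104 in HCC827, 3288 of 6724 in H1975 and 3592 of 7455 in HCC2935. DTPs differed from the acute arm in 5, 3, 2 and 5 members (all genes 39.8%, 29.5%, 26.2% and 42.4%), with 10 rises and 5 falls, and 10 and 3 with library size only. Rises among all genes called in that step were 2782 of 5760, 2211 of 4156, 1673 of 3894 and 3148 of 6077. Long washout still differed from DMSO in 6, 4, 8 and 5 members (all genes 30.6%, 39.7%, 55% and 39.9%). The response differed between lines, by the interaction of line and arm, in 7 members in the acute arm, 8 in DTPs, 6 between DTPs and the acute arm and 6 in long washout against DMSO, beside 40.5%, 61.6%, 52.4% and 52.4% of all genes. These comparisons share libraries with each other, so their calls are not independent. All changes below are log2 fold changes ± SE from edgeR's quasi-likelihood test, on 6 libraries each, adjusted over all genes.

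**Figure D2:**
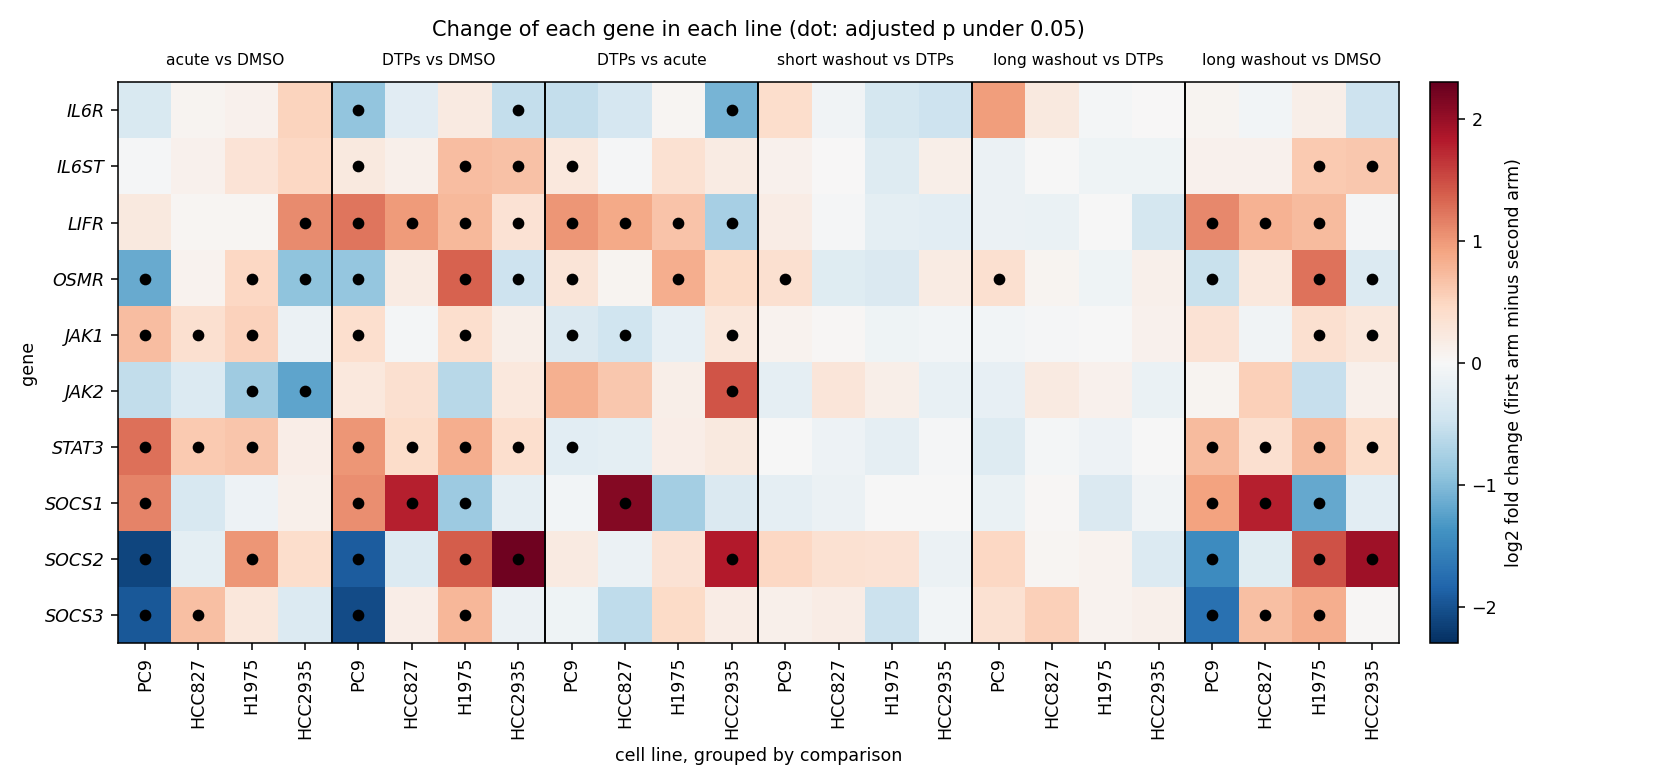
Log2 fold change of the 10 genes (rows) in 6 comparisons of arms within each of the 4 lines (columns), from blue for lower to red for higher, with a dot where the adjusted p was under 0.05. STAT3 and LIFR are dotted and red in all 4 lines in DTPs against DMSO. In the comparisons with DMSO, SOCS2, SOCS3 and OSMR are blue in PC9 and red in H1975. The 2 washout comparisons with DTPs hold 1 dot each, both at OSMR in PC9.

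STAT3 RNA rose with osimertinib and stayed up. It was higher in DTPs than in DMSO in all 4 lines, by 2.03-fold in PC9, 1.79-fold in H1975, 1.34-fold in HCC827 and 1.31-fold in HCC2935, a pattern shared by 4.5% of the 12726 genes tested in all 4 lines. In PC9, STAT3 was at 123, 122 and 104 CPM in DMSO, at 264, 306 and 290.5 in acute osimertinib, at 259.6, 237 and 229.6 in DTPs, at 249, 239 and 233 in short washout and at 169, 164 and 240.3 in long washout. In HCC827, STAT3 was at 166, 179.5 and 189 CPM in DMSO, at 259.6, 278 and 295 in acute osimertinib, at 244, 232 and 232 in DTPs, at 211, 207 and 235 in short washout and at 229.8, 255 and 204 in long washout. The treated libraries of both lines all lay above DMSO, in every arm. In H1975, STAT3 was at 129, 121 and 129.8 CPM in DMSO, at 189, 224 and 204 in acute osimertinib, at 239, 223 and 235 in DTPs, at 204, 198 and 199 in short washout and at 217, 205 and 224 in long washout. In HCC2935, STAT3 was at 234, 230.1 and 223 CPM in DMSO, at 279, 264 and 238 in acute osimertinib, at 302, 306 and 302 in DTPs, at 305, 289.8 and 295 in short washout and at 300.4, 305 and 294 in long washout. H1975 rose by the first day and kept the level. In HCC2935 the acute libraries lay above DMSO, and the DTP and washout libraries lay above the acute ones.

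The acute change of STAT3 was 1.26 ± 0.086 (adjusted p = 2.81e-06) in PC9, 0.60 ± 0.092 (adjusted p = 0.000931) in HCC827 and 0.63 ± 0.091 (adjusted p = 0.00129) in H1975. In HCC2935 it was 0.16 ± 0.081 (adjusted p = 0.141), and the test of the difference between lines gave an adjusted p of 9.69e-06. In DTPs the changes were 1.02 ± 0.083 (adjusted p = 2.62e-06), 0.42 ± 0.11 (adjusted p = 0.0146), 0.84 ± 0.094 (adjusted p = 0.000285) and 0.39 ± 0.072 (adjusted p = 0.00169) in PC9, HCC827, H1975 and HCC2935, and they too differed between lines in size (adjusted p = 6.50e-05). From the acute arm to DTPs, STAT3 moved by -0.23 in PC9 (adjusted p = 0.0371), the only line in which that step passed the threshold, although with limma on log2 TPM it was 0.0299 there, and by -0.23, 0.15 and 0.23 in the others. In long washout it was still above DMSO by 0.73 ± 0.16 (adjusted p = 0.0146), 0.36 ± 0.11 (adjusted p = 0.0287), 0.72 ± 0.07 (adjusted p = 9.74e-05) and 0.42 ± 0.084 (adjusted p = 0.00354), against 2.53% of genes higher in all 4 lines. The acute STAT3 change in HCC2935 passed the threshold with library size only (adjusted p = 0.0368). It also did so in the fit of all 15 libraries of that line (adjusted p = 0.0259). The DTP-against-acute STAT3 change in HCC2935 passed it with DESeq2 (adjusted p = 0.0499) and with limma (adjusted p = 0.01365). In the fit of all 15 libraries that step passed too (adjusted p = 0.0221). The DTP STAT3 call in HCC827 was lost without DMSO replicate 1 (adjusted p = 0.0753). The DTP-against-acute STAT3 call in PC9 was lost with library size only (adjusted p = 0.293), with limma (adjusted p = 0.771) and in the fit of all 15 libraries of the line (adjusted p = 0.144). It was also lost without acute replicate 2 or 3 or DTP replicate 2 or 3 (adjusted p 0.0849 to 0.122). The long-washout-against-DTP STAT3 change in PC9 passed the threshold without long washout replicate 3 (adjusted p = 0.00180). The long-washout-against-DMSO STAT3 call in PC9 was lost without DMSO replicate 3 (adjusted p = 0.0716). The long-washout-against-DMSO STAT3 call in HCC827 was lost without DMSO replicate 1 or long washout replicate 1 or 2 (adjusted p 0.0733 to 0.109).

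**Figure D3:**
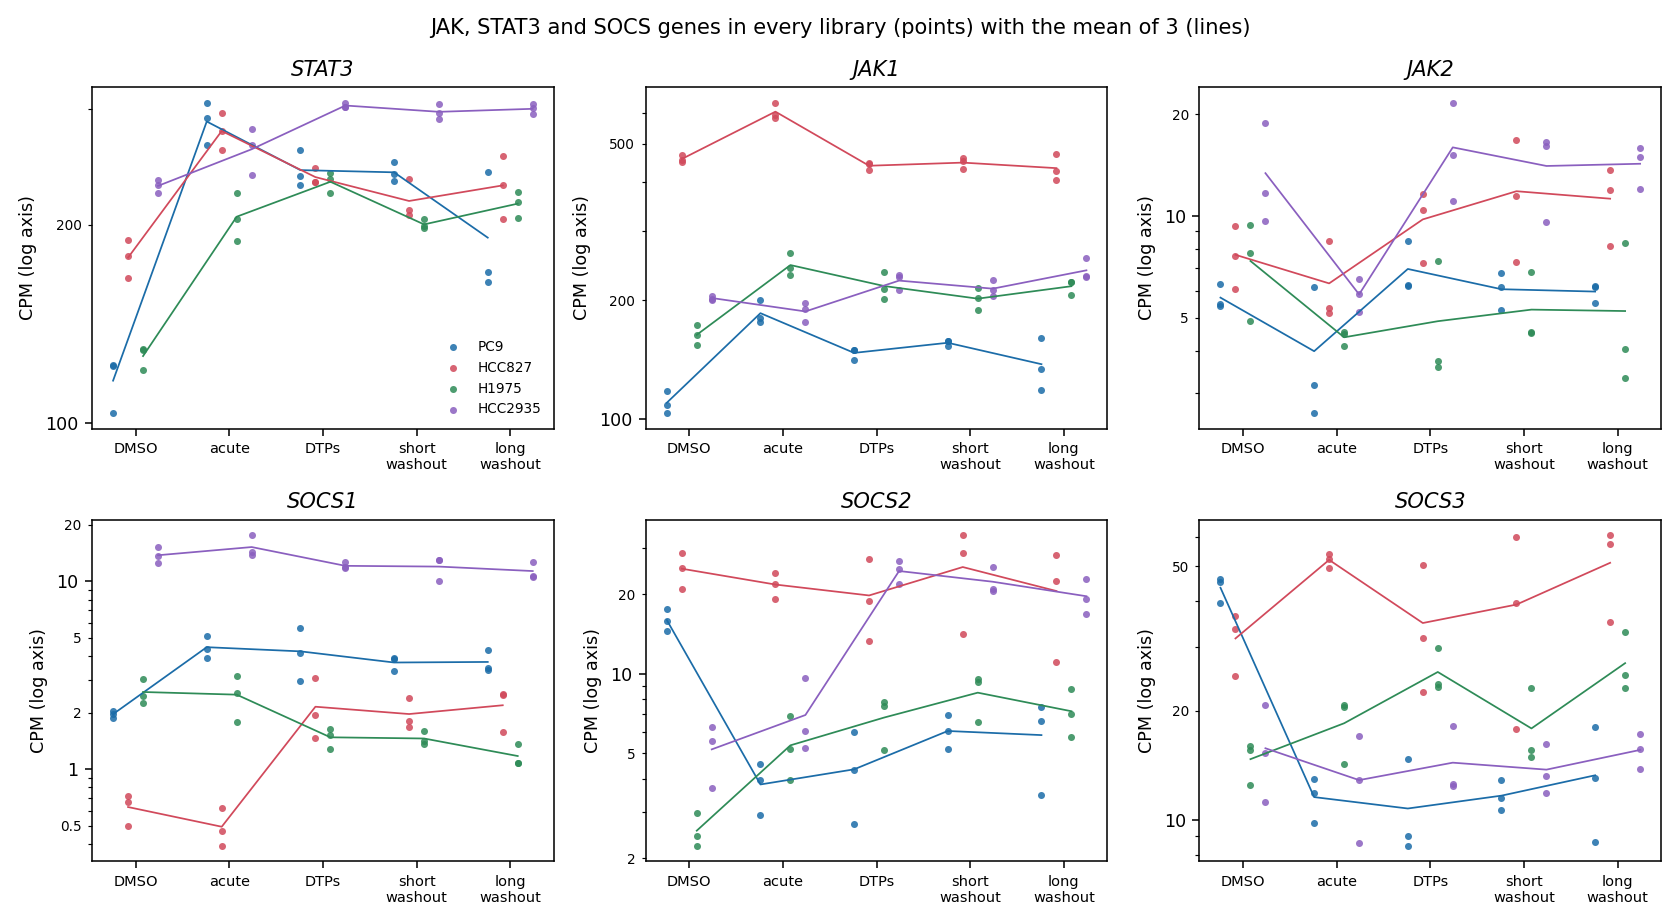
CPM (log axis) of STAT3, JAK1, JAK2, SOCS1, SOCS2 and SOCS3 in all 60 libraries, with 1 point per library and a line through the means of 3 in each of the 4 lines across the 5 arms. STAT3 rises from DMSO in every line, while SOCS2 and SOCS3 fall in PC9 and rise in H1975.

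JAK1, the main kinase of gp130 receptors, rose within 24 h in 3 lines, and was lower again in DTPs of 2 of them. In PC9 its CPM went from 109.8 ± 7.16 in DMSO to 186 ± 12.8 in the acute arm and 147 ± 5.02 in DTPs (mean ± SD, n = 3). In HCC827 the same 3 arms stood at 458 ± 9.48, 604 ± 28.5 and 440.2 ± 9.6 CPM, and in H1975 at 164 ± 9.49, 246 ± 16.9 and 218 ± 17.6 CPM. HCC2935 differed, with 203 ± 2.53, 188 ± 10.6 and 225 ± 10.6 CPM. The acute change was 0.72 ± 0.077 (adjusted p = 3.69e-05), 0.37 ± 0.082 (adjusted p = 0.00649) and 0.52 ± 0.09 (adjusted p = 0.00288) in PC9, HCC827 and H1975, and -0.14 ± 0.081 (adjusted p = 0.181) in HCC2935 (difference between lines, adjusted p = 1.77e-05). Between the acute arm and DTPs it fell by 0.32 in PC9 (adjusted p = 0.00581) and by 0.45 in HCC827 (adjusted p = 0.00597), and rose by 0.27 in HCC2935 (adjusted p = 0.0401). DTPs of PC9 and H1975 kept 0.38 ± 0.067 (adjusted p = 0.000561) and 0.38 ± 0.10 (adjusted p = 0.0143) over DMSO, while HCC827 was at -0.04 ± 0.10 (adjusted p = 0.790) and HCC2935 at 0.13 ± 0.076 (adjusted p = 0.175). Long washout was above DMSO in H1975, by 0.37 ± 0.071 (adjusted p = 0.00290), and in HCC2935, by 0.27 ± 0.089 (adjusted p = 0.0378), and stood at 0.34 ± 0.13 (adjusted p = 0.0766) in PC9 and -0.08 ± 0.096 (adjusted p = 0.544) in HCC827. The DTP-against-acute JAK1 call in PC9 was lost with library size only (adjusted p = 0.0578) and with limma on log2 TPM (adjusted p = 0.600). The DTP JAK1 call in H1975 was lost with limma (adjusted p = 0.0558). The same call was lost without DMSO replicate 3 or DTP replicate 1 (adjusted p 0.0640 to 0.0823). The DTP-against-acute JAK1 call in HCC2935 was lost with library size only (adjusted p = 0.0943). Leaving out 1 library ended it too, without acute replicate 1 or 2 or DTP replicate 1, 2 or 3 (adjusted p 0.0618 to 0.143). The long-washout-against-DMSO JAK1 call in HCC2935 was lost with library size only (adjusted p = 0.0744) and with no filter on low counts (adjusted p = 0.0621). It was also lost without DMSO replicate 1, 2 or 3 or long washout replicate 1, 2 or 3 (adjusted p 0.0522 to 0.137).

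JAK2, a far less abundant kinase in these lines, fell with acute osimertinib in HCC2935 and was back in DTPs. In HCC2935, JAK2 was at 18.8, 11.7 and 9.64 CPM in DMSO, at 5.89, 5.2 and 6.5 in acute osimertinib, at 21.6, 15.1 and 11.1 in DTPs, at 9.59, 16.5 and 16.1 in short washout and at 15.8, 12 and 15 in long washout. The 3 acute libraries were all below the DMSO and DTP libraries. The change was -1.21 ± 0.25 (adjusted p = 0.00322) in the acute arm, and 1.45 ± 0.24 (adjusted p = 0.000997) from there to DTPs. In H1975, JAK2 was at 7.79, 4.88 and 9.41 CPM in DMSO, at 4.53, 4.49 and 4.12 in acute osimertinib, at 3.58, 3.73 and 7.35 in DTPs, at 4.53, 4.51 and 6.82 in short washout and at 8.33, 3.32 and 4.06 in long washout. Only the acute arm of H1975 kept clear of DMSO, with a change of -0.82 ± 0.26 (adjusted p = 0.0364). In PC9, JAK2 was at 6.3, 5.5 and 5.41 CPM in DMSO, at 3.16, 6.18 and 2.61 in acute osimertinib, at 6.25, 8.46 and 6.21 in DTPs, at 6.76, 6.18 and 5.28 in short washout and at 6.18, 5.54 and 6.21 in long washout. In HCC827, JAK2 was at 6.1, 7.6 and 9.34 CPM in DMSO, at 5.36, 8.43 and 5.18 in acute osimertinib, at 10.4, 11.6 and 7.27 in DTPs, at 16.7, 11.5 and 7.32 in short washout and at 8.16, 11.9 and 13.7 in long washout. The arms of PC9 and HCC827 overlapped with DMSO throughout, with acute changes of -0.56 ± 0.30 (adjusted p = 0.130) and -0.32 ± 0.27 (adjusted p = 0.370). The change of JAK2 was not shown to differ between lines, in the acute arm (adjusted p = 0.358) or in DTPs (adjusted p = 0.179). Against DMSO, no line passed the threshold for JAK2 in DTPs, where the changes were 0.25, 0.36, -0.63 and 0.24, or in long washout, where they were 0.07, 0.55, -0.54 and 0.12. The acute JAK2 change in PC9 passed the threshold without acute replicate 2 (adjusted p = 0.00308). The acute JAK2 call in H1975 was lost in the fit of all 15 libraries of the line (adjusted p = 0.0879). The same call was lost without DMSO replicate 1 or 3 or acute replicate 1, 2 or 3 (adjusted p 0.0631 to 0.129). The DTP JAK2 change in H1975 passed the threshold without DTP replicate 3 (adjusted p = 0.0349). The DTP-against-acute JAK2 change in PC9 passed the threshold without acute replicate 2 (adjusted p = 0.00371). The long-washout-against-DMSO JAK2 change in H1975 passed the threshold without long washout replicate 1 (adjusted p = 0.0328).

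SOCS3, the feedback inhibitor at gp130, moved in opposite directions in different lines. In PC9, SOCS3 was at 46, 39.6 and 45.2 CPM in DMSO, at 9.83, 11.9 and 13 in acute osimertinib, at 9.00, 8.49 and 14.8 in DTPs, at 12.9, 11.5 and 10.6 in short washout and at 13.1, 18 and 8.72 in long washout. PC9 lost most of its SOCS3 within 24 h and did not regain it. In H1975, SOCS3 was at 15.6, 12.4 and 16 CPM in DMSO, at 14.3, 20.7 and 20.4 in acute osimertinib, at 29.7, 23.3 and 23.7 in DTPs, at 14.9, 15.6 and 23.1 in short washout and at 25, 23.1 and 33 in long washout. In H1975 the DTP and long washout libraries were all above DMSO. In HCC827, SOCS3 was at 36.5, 24.9 and 33.5 CPM in DMSO, at 54.1, 52.5 and 49.6 in acute osimertinib, at 22.5, 50.4 and 31.7 in DTPs, at 17.8, 60.2 and 39.7 in short washout and at 60.8, 57.4 and 35.1 in long washout. The acute libraries of HCC827 were all above DMSO, and the later arms spread widely. In HCC2935, SOCS3 was at 15.3, 20.8 and 11.2 CPM in DMSO, at 12.9, 17.1 and 8.65 in acute osimertinib, at 12.6, 18.2 and 12.4 in DTPs, at 13.2, 11.9 and 16.2 in short washout and at 15.6, 13.9 and 17.3 in long washout. HCC2935 overlapped with DMSO in every arm.

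In PC9, SOCS3 changed by -1.96 ± 0.13 (adjusted p = 2.00e-06) in the acute arm, a 3.88-fold fall, by -2.06 ± 0.19 (adjusted p = 6.00e-06) in DTPs and by -1.71 ± 0.24 (adjusted p = 0.00350) in long washout against DMSO. HCC827 rose by 0.68 ± 0.15 (adjusted p = 0.00536) in the acute arm, was at 0.16 ± 0.28 (adjusted p = 0.694) in DTPs and rose by 0.69 ± 0.22 (adjusted p = 0.0330) in long washout. H1975 was at 0.26 ± 0.18 (adjusted p = 0.281) in the acute arm, and rose by 0.76 ± 0.16 (adjusted p = 0.00442) in DTPs and by 0.83 ± 0.16 (adjusted p = 0.00312) in long washout. HCC2935 was at -0.32 ± 0.27 (adjusted p = 0.357), -0.14 ± 0.24 (adjusted p = 0.644) and 0.02 ± 0.21 (adjusted p = 0.953) in the 3 comparisons. The response differed between lines in each of them, with adjusted p = 6.38e-06, 1.27e-05 and 1.53e-05. From the acute arm to DTPs no line passed the threshold, with changes of -0.09, -0.58, 0.45 and 0.17 in PC9, HCC827, H1975 and HCC2935. The DTP-against-acute SOCS3 change in HCC827 passed the threshold without DTP replicate 2 (adjusted p = 0.00991). In the fit of all 15 libraries of HCC827 its acute SOCS3 call was lost (adjusted p = 0.147). The long-washout-against-DMSO SOCS3 call in HCC827 was lost in that fit (adjusted p = 0.134) and with limma on log2 TPM (adjusted p = 0.0637). Leaving out 1 library ended it too, without DMSO replicate 2 or 3 or long washout replicate 1 or 2 (adjusted p 0.0563 to 0.116).

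SOCS2 also fell in PC9 and rose in H1975, and its largest rise was in DTPs of HCC2935. In PC9, SOCS2 was at 17.5, 14.5 and 15.8 CPM in DMSO, at 3.97, 2.91 and 4.53 in acute osimertinib, at 4.32, 2.69 and 6.003 in DTPs, at 6.07, 6.95 and 5.16 in short washout and at 6.64, 7.44 and 3.46 in long washout. In HCC2935, SOCS2 was at 6.25, 5.55 and 3.68 CPM in DMSO, at 9.6, 6.08 and 5.22 in acute osimertinib, at 21.9, 24.9 and 26.6 in DTPs, at 25.3, 20.6 and 21 in short washout and at 22.9, 19.2 and 16.8 in long washout. In HCC2935 all DTP and washout libraries were above all DMSO and acute libraries. In H1975, SOCS2 was at 2.42, 2.97 and 2.23 CPM in DMSO, at 6.92, 5.17 and 3.95 in acute osimertinib, at 7.82, 7.51 and 5.11 in DTPs, at 9.52, 9.32 and 6.55 in short washout and at 5.77, 7.05 and 8.77 in long washout. In HCC827, SOCS2 was at 25.2, 28.7 and 21 CPM in DMSO, at 21.8, 19.2 and 24.1 in acute osimertinib, at 13.3, 18.8 and 27.2 in DTPs, at 14.1, 28.5 and 33.4 in short washout and at 22.4, 28.1 and 11 in long washout. Every treated library of H1975 was above DMSO, whereas HCC827 overlapped with DMSO in each arm. In PC9 the change was -2.11 ± 0.18 (adjusted p = 9.11e-06) in the acute arm, -1.91 ± 0.24 (adjusted p = 5.76e-05) in DTPs and -1.44 ± 0.27 (adjusted p = 0.00855) in long washout against DMSO. In H1975 the 3 values were 1.01 ± 0.27 (adjusted p = 0.0180), 1.39 ± 0.24 (adjusted p = 0.00202) and 1.46 ± 0.22 (adjusted p = 0.000771). In HCC2935 they were 0.40 ± 0.28 (adjusted p = 0.268), 2.23 ± 0.20 (adjusted p = 3.22e-05), which is a 4.69-fold rise, and 1.96 ± 0.22 (adjusted p = 0.000137). HCC827 gave -0.23 ± 0.15 (adjusted p = 0.254), -0.32 ± 0.25 (adjusted p = 0.358) and -0.28 ± 0.29 (adjusted p = 0.472). The step from the acute arm to DTPs passed the threshold only in HCC2935, by 1.82 ± 0.22 (adjusted p = 0.000129). Lines differed in all of these comparisons, with adjusted p = 3.41e-06 for the acute arm, 9.31e-08 for DTPs, 0.00254 between the 2 and 3.64e-06 for long washout. The acute SOCS2 call in H1975 was lost without DMSO replicate 1 or 3 or acute replicate 1 (adjusted p 0.0508 to 0.0682).

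SOCS1 was at low levels in every line but HCC2935, and took a course of its own. In PC9, SOCS1 was at 1.88, 2.05 and 1.97 CPM in DMSO, at 5.12, 4.37 and 3.91 in acute osimertinib, at 2.93, 4.15 and 5.64 in DTPs, at 3.84, 3.35 and 3.91 in short washout and at 3.38, 4.34 and 3.46 in long washout. In HCC827, SOCS1 was at 0.672, 0.717 and 0.496 CPM in DMSO, at 0.391, 0.619 and 0.471 in acute osimertinib, at 1.93, 1.46 and 3.05 in DTPs, at 1.82, 2.4 and 1.68 in short washout and at 2.53, 2.47 and 1.57 in long washout. PC9 was up from the first day, while HCC827 was up only after 21 days of drug. In H1975, SOCS1 was at 2.24, 3.04 and 2.45 CPM in DMSO, at 2.54, 3.15 and 1.79 in acute osimertinib, at 1.52, 1.28 and 1.63 in DTPs, at 1.36, 1.4 and 1.6 in short washout and at 1.08, 1.37 and 1.08 in long washout. In HCC2935, SOCS1 was at 15.3, 13.6 and 12.5 CPM in DMSO, at 17.6, 13.8 and 14.3 in acute osimertinib, at 12.7, 11.7 and 11.9 in DTPs, at 12.9, 10.1 and 13 in short washout and at 10.7, 10.6 and 12.8 in long washout. All DTP and washout libraries of H1975 were below DMSO, and HCC2935, the line with the most SOCS1, overlapped with DMSO in every arm. In PC9 the changes were 1.14 ± 0.21 (adjusted p = 0.00107) in the acute arm, 1.07 ± 0.27 (adjusted p = 0.00481) in DTPs and 0.93 ± 0.24 (adjusted p = 0.0222) in long washout against DMSO. In HCC827 they were -0.37 ± 0.47 (adjusted p = 0.562), 1.78 ± 0.47 (adjusted p = 0.0172) and 1.79 ± 0.44 (adjusted p = 0.0103), with 2.11 ± 0.45 (adjusted p = 0.0118) from the acute arm to DTPs. H1975 fell in DTPs and in long washout, with -0.11 ± 0.28 (adjusted p = 0.771), -0.83 ± 0.27 (adjusted p = 0.0307) and -1.17 ± 0.25 (adjusted p = 0.00492). HCC2935 gave 0.12 ± 0.15 (adjusted p = 0.549), -0.20 ± 0.14 (adjusted p = 0.251) and -0.25 ± 0.16 (adjusted p = 0.247). The lines differed, with adjusted p = 0.00422, 2.61e-05 and 1.62e-06 for these 3 comparisons and 0.000100 between DTPs and the acute arm. Its estimated counts went down to 7.05 in a library, the lowest of any member. The DTP SOCS1 call in HCC827 was lost without DMSO replicate 1 or 3 or DTP replicate 3 (adjusted p 0.0554 to 0.0855). The DTP SOCS1 call in H1975 was lost without DMSO replicate 2 or 3 or DTP replicate 1 or 2 (adjusted p 0.0746 to 0.0787). The DTP-against-acute SOCS1 call in HCC827 was lost without acute replicate 1 (adjusted p = 0.0528). The long-washout-against-DMSO SOCS1 call in PC9 was lost without DMSO replicate 1, 2 or 3 or long washout replicate 1 (adjusted p 0.0516 to 0.0770). The long-washout-against-DMSO SOCS1 call in HCC827 was lost without long washout replicate 1 (adjusted p = 0.0502).

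LIFR, the receptor chain for leukaemia inhibitory factor, rose in DTPs of all 4 lines, as STAT3 did. In PC9, LIFR was at 13.6, 13.3 and 11.9 CPM in DMSO, at 15.1, 14.3 and 17.2 in acute osimertinib, at 29.8, 26.2 and 37.5 in DTPs, at 32.6, 40.8 and 32.3 in short washout and at 26, 29.3 and 27.2 in long washout. In HCC827, LIFR was at 13.4, 11.7 and 15.4 CPM in DMSO, at 14.8, 15.8 and 12.3 in acute osimertinib, at 24.7, 24.7 and 29.2 in DTPs, at 27.4, 18.9 and 30.7 in short washout and at 19.95, 19.4 and 31.4 in long washout. In both lines the acute libraries were closer to DMSO than to DTPs, and all DTP and washout libraries lay above DMSO. In H1975, LIFR was at 58.9, 70.8 and 71 CPM in DMSO, at 78.7, 75.3 and 63 in acute osimertinib, at 130.0, 118 and 97.4 in DTPs, at 101, 93.1 and 98 in short washout and at 115, 118 and 109 in long washout. H1975, with the highest level from the start, showed the same order. In HCC2935, LIFR was at 28.4, 29.5 and 27.2 CPM in DMSO, at 58.4, 54.9 and 71.4 in acute osimertinib, at 40.9, 32.9 and 34.4 in DTPs, at 34.5, 27.7 and 29.4 in short washout and at 23.2, 31.1 and 27 in long washout. HCC2935 ran the other way, up within 24 h and down again in DTPs and after. The acute change was 1.09 ± 0.12 (adjusted p = 8.06e-05) in HCC2935 and 0.22, 0.05 and 0.05 in PC9, HCC827 and H1975, none of which passed the threshold (difference between lines, adjusted p = 0.000179). DTPs were above DMSO by 1.23 ± 0.13 (adjusted p = 2.13e-05), 0.97 ± 0.17 (adjusted p = 0.00269), 0.75 ± 0.13 (adjusted p = 0.00205) and 0.33 ± 0.11 (adjusted p = 0.0347) in PC9, HCC827, H1975 and HCC2935. The step from the acute arm to DTPs was a rise of 1.02 ± 0.14 (adjusted p = 0.000752), 0.88 ± 0.15 (adjusted p = 0.00463) and 0.65 ± 0.13 (adjusted p = 0.00997) in the first 3 lines and a change of -0.77 ± 0.13 (adjusted p = 0.00121) in HCC2935 (difference between lines, adjusted p = 2.89e-06). In long washout it remained above DMSO in PC9, HCC827 and H1975, by 1.10 ± 0.12 (adjusted p = 0.00194), 0.80 ± 0.22 (adjusted p = 0.0187) and 0.72 ± 0.092 (adjusted p = 0.000346), and was at -0.03 ± 0.13 (adjusted p = 0.868) in HCC2935. The DTP LIFR call in HCC2935 was lost without DMSO replicate 1, 2 or 3 or DTP replicate 1 or 3 (adjusted p 0.0560 to 0.115). The long-washout-against-DMSO LIFR call in HCC827 was lost without DMSO replicate 1 or long washout replicate 3 (adjusted p 0.0540 to 0.0578). The DTP rise in HCC2935 was also lost with no filter on low counts (adjusted p = 0.0513), and the sizes in DTPs differed between lines (adjusted p = 0.00467).

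**Figure D4:**
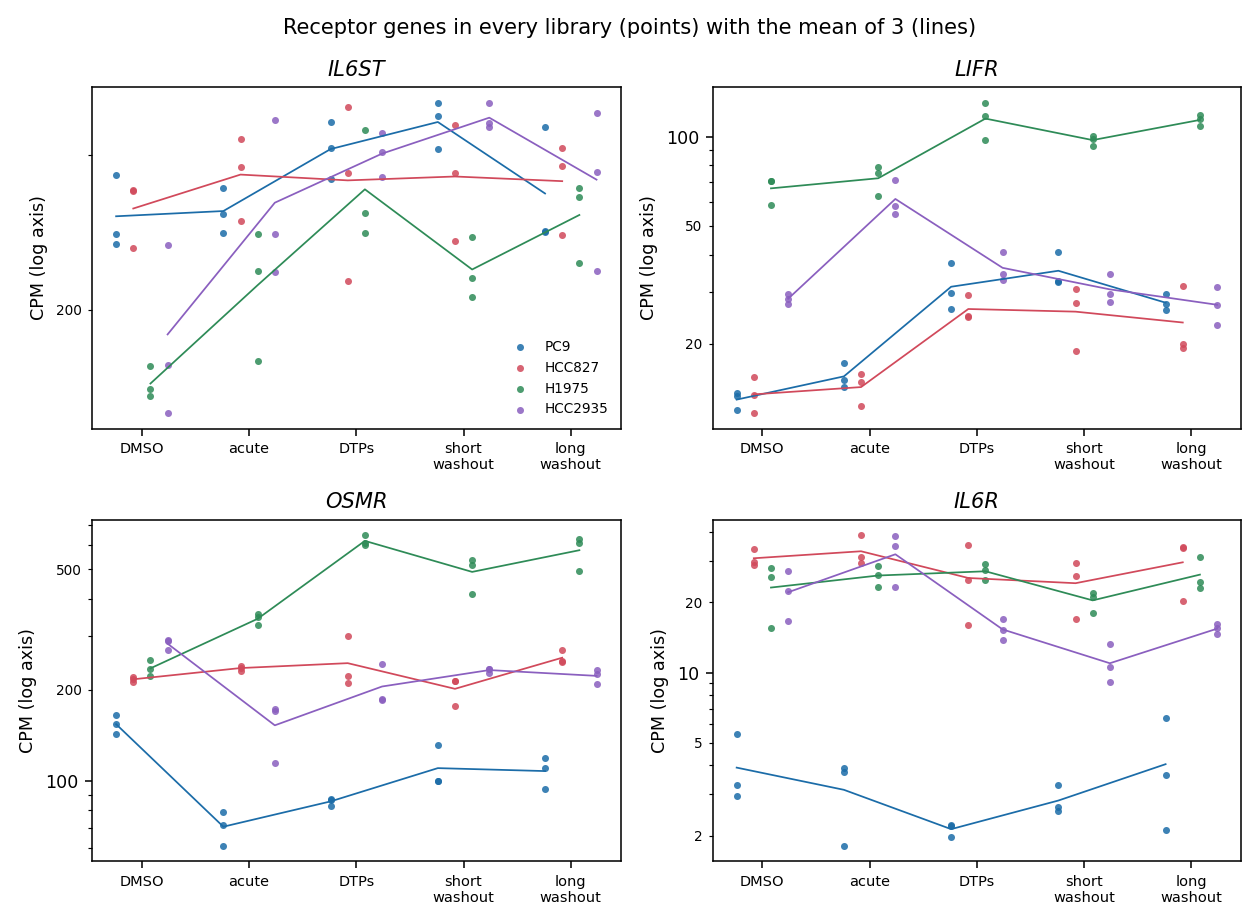
CPM (log axis) of IL6ST, LIFR, OSMR and IL6R in all 60 libraries, with 1 point per library and a line through the means of 3 in each of the 4 lines across the 5 arms. LIFR is higher in DTPs than in DMSO in every line and OSMR climbs most in H1975.

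Since STAT3 and LIFR were the members that rose in DTPs of every line, their start sites are shown, from 250 bases before to 50 after each RefSeq start (GRCh38.p14). Capitals mark the letters TTCNNNGAA, the core that STAT proteins are known to bind, which reads the same way on both strands and which 7.66% of 35116 such windows hold. Of the members, 9 had at least 1 window and LIFR was the only 1 of them with this motif, in 2 of its 3 windows. The LIFR window without the motif, chr5:38556597-38556896, is not printed below. Counted by window, 2 of the 17 member windows held it (11.8%). The SOCS3 windows, chr17:78360876-78361175 and chr17:78359618-78359917, do not cover its start in GENCODE, chr17:78360077. The bases just before that start were thus not read. The LIFR windows do not cover its GENCODE start, chr5:38608354, either.
STAT3, chr17:42388393-42388692, minus strand, no match: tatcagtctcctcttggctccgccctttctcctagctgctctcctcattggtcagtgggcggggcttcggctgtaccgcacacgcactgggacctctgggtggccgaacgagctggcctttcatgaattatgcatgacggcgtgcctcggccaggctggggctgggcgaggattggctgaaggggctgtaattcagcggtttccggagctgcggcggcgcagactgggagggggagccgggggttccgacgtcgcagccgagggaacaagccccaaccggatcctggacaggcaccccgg
LIFR, chr5:38595356-38595655, minus strand, match 165 bases before the start: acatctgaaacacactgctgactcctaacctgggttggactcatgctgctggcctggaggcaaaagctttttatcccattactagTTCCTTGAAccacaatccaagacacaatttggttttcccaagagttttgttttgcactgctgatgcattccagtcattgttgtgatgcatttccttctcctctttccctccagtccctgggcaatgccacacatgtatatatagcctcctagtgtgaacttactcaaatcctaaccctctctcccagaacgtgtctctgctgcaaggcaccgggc
LIFR, chr5:38557418-38557717, minus strand, match 182 bases before the start: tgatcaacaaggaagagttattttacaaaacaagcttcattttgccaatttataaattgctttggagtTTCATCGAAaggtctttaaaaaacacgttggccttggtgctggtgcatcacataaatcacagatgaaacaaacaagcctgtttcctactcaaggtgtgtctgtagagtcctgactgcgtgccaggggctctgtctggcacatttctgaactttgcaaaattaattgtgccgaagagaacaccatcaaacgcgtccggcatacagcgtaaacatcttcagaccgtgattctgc
A match of letters is no evidence of binding, and no match says only that the letters are absent from this window. The counts are per gene, so which LIFR start was used was not measured.

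OSMR, the chain that binds oncostatin M together with gp130, fell in PC9 and HCC2935 and rose in H1975. In PC9, OSMR was at 143, 155 and 165 CPM in DMSO, at 61.2, 79.1 and 71.8 in acute osimertinib, at 87.6, 82.7 and 86.8 in DTPs, at 99.996, 131 and 99.8 in short washout and at 110.1, 119 and 94.2 in long washout. In H1975, OSMR was at 250.3, 221 and 234 CPM in DMSO, at 348, 355 and 326 in acute osimertinib, at 646, 602 and 611 in DTPs, at 517, 415 and 536 in short washout and at 609.8, 493 and 629 in long washout. The treated libraries of PC9 lay below and those of H1975 above, without overlap with DMSO in any arm. In HCC2935, OSMR was at 289, 293 and 270.0 CPM in DMSO, at 171, 172 and 115 in acute osimertinib, at 244, 186 and 186 in DTPs, at 235, 234 and 228 in short washout and at 209, 225 and 233 in long washout. In HCC827, OSMR was at 219.6, 213 and 218 CPM in DMSO, at 239.9, 236 and 231 in acute osimertinib, at 222, 302 and 211 in DTPs, at 177, 214 and 214 in short washout and at 270.3, 249 and 246 in long washout. HCC2935 also lay below DMSO in every arm, and HCC827 passed the threshold in no comparison with DMSO. In PC9 the changes were -1.16 ± 0.10 (adjusted p = 1.09e-05) in the acute arm, -0.88 ± 0.073 (adjusted p = 2.89e-06) in DTPs and -0.51 ± 0.11 (adjusted p = 0.0146) in long washout against DMSO. In H1975 they were 0.48 ± 0.087 (adjusted p = 0.00369), 1.36 ± 0.10 (adjusted p = 6.36e-05), a 2.57-fold rise, and 1.25 ± 0.10 (adjusted p = 4.90e-05). In HCC2935 they were -0.92 ± 0.14 (adjusted p = 0.000510), -0.48 ± 0.11 (adjusted p = 0.00594) and -0.32 ± 0.092 (adjusted p = 0.0207). HCC827 gave 0.09 ± 0.079 (adjusted p = 0.402), 0.19 ± 0.15 (adjusted p = 0.342) and 0.23 ± 0.092 (adjusted p = 0.0696). The difference between lines had the lowest p of any member in the acute arm (adjusted p = 2.65e-07), in DTPs (adjusted p = 3.69e-09) and in long washout (adjusted p = 1.40e-08). From the acute arm to DTPs OSMR rose in H1975 by 0.83 ± 0.10 (adjusted p = 0.00128) and in PC9 by 0.29 ± 0.094 (adjusted p = 0.0388), and stood at 0.06 ± 0.14 (adjusted p = 0.794) and 0.43 ± 0.16 (adjusted p = 0.0549) in HCC827 and HCC2935. The DTP OSMR call in HCC2935 was lost with limma on log2 TPM (adjusted p = 0.0691). The DTP-against-acute OSMR call in PC9 was lost in the fit of all 15 libraries of the line (adjusted p = 0.0917). It was also lost without acute replicate 1 or 3 or DTP replicate 1, 2 or 3 (adjusted p 0.0632 to 0.109). The DTP-against-acute OSMR change in HCC2935 passed the threshold without acute replicate 2 (adjusted p = 0.0494). The long-washout-against-DMSO OSMR call in PC9 was lost without DMSO replicate 2 or 3 (adjusted p 0.0501 to 0.0696). The long-washout-against-DMSO OSMR call in HCC2935 was lost with limma (adjusted p = 0.0888) and in the fit of all 15 libraries (adjusted p = 0.0574). The same call was lost without DMSO replicate 1 or 2 (adjusted p 0.0777 to 0.0790).

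IL6ST, the gp130 chain itself, rose in DTPs of PC9, H1975 and HCC2935. In H1975, IL6ST was at 172, 162 and 159 CPM in DMSO, at 221, 244 and 175 in acute osimertinib, at 321, 245 and 258 in DTPs, at 242, 207 and 218 in short washout and at 275, 226 and 269 in long washout. In HCC2935, IL6ST was at 152, 173 and 237 CPM in DMSO, at 221, 244 and 329.6 in acute osimertinib, at 318, 303 and 284 in DTPs, at 327, 344 and 323 in short washout and at 288, 335 and 222 in long washout. DTPs of both lines were above all of their DMSO libraries. In PC9, IL6ST was at 285, 238 and 244 CPM in DMSO, at 257, 275 and 245 in acute osimertinib, at 327, 306 and 282 in DTPs, at 305, 345 and 333 in short washout and at 245, 246 and 323 in long washout. In HCC827, IL6ST was at 235, 274 and 273 CPM in DMSO, at 252, 291 and 313 in acute osimertinib, at 216, 341 and 286 in DTPs, at 325, 287 and 239 in short washout and at 306, 292 and 243 in long washout. In PC9 the DTP libraries overlapped with DMSO at the edge, and in HCC827 every arm did. In DTPs the changes were 0.22 ± 0.085 (adjusted p = 0.0418) in PC9, 0.12 ± 0.17 (adjusted p = 0.608) in HCC827, 0.70 ± 0.12 (adjusted p = 0.00178) in H1975 and 0.67 ± 0.16 (adjusted p = 0.00583) in HCC2935, with a difference between lines (adjusted p = 0.0261). No line passed the threshold in the acute arm, where the changes were -0.02 ± 0.084 (adjusted p = 0.835), 0.09 ± 0.11 (adjusted p = 0.515), 0.31 ± 0.13 (adjusted p = 0.0882) and 0.47 ± 0.19 (adjusted p = 0.0680). Same-numbered libraries of HCC2935 DMSO and acute deviated together, and with the replicate number as a block its acute change was 0.48 (adjusted p = 0.000361), in a fit that called 53.2% of all genes. From the acute arm to DTPs the change passed the threshold in PC9, by 0.25 ± 0.075 (adjusted p = 0.0294), and was -0.02, 0.34 and 0.19 in HCC827, H1975 and HCC2935. In long washout IL6ST was above DMSO in H1975, by 0.59 ± 0.089 (adjusted p = 0.000818), and in HCC2935, by 0.62 ± 0.19 (adjusted p = 0.0247), and stood at 0.10 ± 0.14 (adjusted p = 0.613) and 0.10 ± 0.12 (adjusted p = 0.523) in PC9 and HCC827. The acute IL6ST change in H1975 passed the threshold without acute replicate 3 (adjusted p = 0.0107). The acute IL6ST change in HCC2935 passed the threshold without DMSO replicate 3 or acute replicate 1 (adjusted p 0.0106 to 0.0473). The DTP IL6ST call in PC9 was lost with no filter on low counts (adjusted p = 0.0508) and in the fit of all 15 libraries of the line (adjusted p = 0.0710). It was also lost without DMSO replicate 2 or 3 or DTP replicate 1 or 2 (adjusted p 0.0946 to 0.158). The DTP-against-acute IL6ST call in PC9 was lost in the fit of all 15 libraries (adjusted p = 0.111). Leaving out 1 library ended it too, without acute replicate 1 or 3 or DTP replicate 1 or 2 (adjusted p 0.0697 to 0.105). The DTP-against-acute IL6ST change in HCC2935 passed the threshold without acute replicate 3 (adjusted p = 0.0169). The long-washout-against-DTP IL6ST change in PC9 passed the threshold without long washout replicate 3 (adjusted p = 0.0286). The long-washout-against-DMSO IL6ST call in HCC2935 was lost with limma on log2 TPM (adjusted p = 0.0616). It was also lost without DMSO replicate 1 or 2 or long washout replicate 1 or 2 (adjusted p 0.0630 to 0.101).

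IL6R, the chain for interleukin-6, was lower in DTPs of PC9 and HCC2935. In PC9, IL6R was at 3.3, 2.96 and 5.47 CPM in DMSO, at 3.74, 1.81 and 3.88 in acute osimertinib, at 2.19, 1.98 and 2.22 in DTPs, at 2.54, 2.65 and 3.28 in short washout and at 2.12, 3.62 and 6.4 in long washout. In HCC2935, IL6R was at 22.5, 27.2 and 16.7 CPM in DMSO, at 38.5, 23.2 and 34.7 in acute osimertinib, at 17, 13.8 and 15.2 in DTPs, at 13.2, 10.6 and 9.14 in short washout and at 14.6, 15.5 and 16.1 in long washout. PC9 DTPs lay below all DMSO libraries from a level that was already low, and in HCC2935 only the highest DTP library reached the lowest DMSO library. In H1975, IL6R was at 15.6, 25.8 and 28.1 CPM in DMSO, at 28.8, 26.2 and 23.2 in acute osimertinib, at 29.1, 24.9 and 27.5 in DTPs, at 18, 22 and 21.2 in short washout and at 24.5, 31.4 and 23 in long washout. In HCC827, IL6R was at 29, 33.9 and 29.8 CPM in DMSO, at 31.3, 38.8 and 29.4 in acute osimertinib, at 16, 24.9 and 35.4 in DTPs, at 16.9, 26.1 and 29.5 in short washout and at 34.5, 34.3 and 20.3 in long washout. In both lines the arms overlapped with DMSO. The DTP changes were -0.91 ± 0.28 (adjusted p = 0.0137) in PC9, -0.27 ± 0.25 (adjusted p = 0.450) in HCC827, 0.20 ± 0.20 (adjusted p = 0.453) in H1975 and -0.54 ± 0.18 (adjusted p = 0.0304) in HCC2935, and a difference between lines was not shown (adjusted p = 0.0669). In HCC2935 the step from the acute arm to DTPs was -1.07 ± 0.19 (adjusted p = 0.00130), from an acute level that stood 0.52 ± 0.21 (adjusted p = 0.0707) above DMSO. In PC9, HCC827 and H1975 that step was -0.55, -0.38 and 0.04, and their acute changes of -0.36, 0.07 and 0.11 did not pass the threshold. Long washout differed from DMSO by 0.06, -0.06, 0.14 and -0.48, with no line past the threshold (adjusted p 0.0550 to 0.924). The acute IL6R change in HCC2935 passed the threshold without DMSO replicate 2 or acute replicate 2 (adjusted p 0.0166 to 0.0415). The DTP IL6R call in PC9 was lost without DMSO replicate 3 (adjusted p = 0.0623). The DTP IL6R call in HCC2935 was lost with limma on log2 TPM (adjusted p = 0.145). The same call was lost without DMSO replicate 1 or 2 or DTP replicate 2 or 3 (adjusted p 0.0716 to 0.151). The DTP-against-acute IL6R change in PC9 passed the threshold without acute replicate 2 (adjusted p = 0.0227). The long-washout-against-DMSO IL6R change in HCC2935 passed the threshold without DMSO replicate 3 (adjusted p = 0.0112).

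After the drug was removed, few members passed the threshold of the edgeR test, and in HCC827, H1975 and HCC2935 few of all genes did. Against DTPs, short washout changed 1 member in PC9, where 22.2% of all genes were called, and 0 in HCC827, H1975 and HCC2935, where the same edgeR test called 0%, 0% and 3.52% of all genes. At an unadjusted p under 0.05 the members were 1, 0, 5 and 1 in PC9, HCC827, H1975 and HCC2935, and over the 4 lines DESeq2 called 1 and limma 0. Over all genes, an unadjusted p under 0.05 was reached by 5265 of 14526 in PC9 and 197 of 14009 in HCC827. In H1975 it was reached by 1950 of 14665 and in HCC2935 by 2878 of 14305. DESeq2 called 1 gene in HCC827 and 403 in H1975. The member called was OSMR in PC9, with 0.36 ± 0.11 (adjusted p = 0.0373). The short washout OSMR call in PC9 was lost with limma (adjusted p = 0.0687) and in the fit of all 15 libraries of the line (adjusted p = 0.0800). Leaving out 1 library ended it too, without DTP replicate 1, 2 or 3 or short washout replicate 2 (adjusted p 0.0596 to 0.103). The short washout OSMR change in HCC2935 passed the threshold without DTP replicate 1 (adjusted p = 0.0456). In H1975, same-numbered DTP and short washout libraries deviated from their group means together, so the numbers were taken to pair the libraries. With the number as a block, 4 members fell there, SOCS3 by 0.52 (adjusted p = 0.0478), IL6R by 0.40 (adjusted p = 0.0358), IL6ST by 0.28 (adjusted p = 0.0185) and OSMR by 0.33 (adjusted p = 0.0173), in a fit that called 11.6% of all genes. HCC827 was paired in the same way, and with the block it called no member and 0.0143% of all genes.

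Long washout against DTPs also changed 1 member in PC9 (17.3% of all genes), and 0 in HCC827 (0% of all genes), H1975 (0.0136%) and HCC2935 (5.16%). At an unadjusted p under 0.05 the members were 2, 0, 0 and 1, and over the 4 lines DESeq2 called 1 and limma 0. Over all genes, an unadjusted p under 0.05 was reached by 5689 of 14424 in PC9 and 434 of 14053 in HCC827. In H1975 it was reached by 660 of 14702 and in HCC2935 by 3373 of 14429. DESeq2 called 7 genes in HCC827. The member was again OSMR in PC9, with 0.37 ± 0.11 (adjusted p = 0.0490). The long-washout-against-DTP OSMR call in PC9 was lost with each of 5 alternatives, namely RLE size factors, limma, library size only, the stricter minimum of 10 counts and no filter (adjusted p 0.0558 to 0.0947). It was also lost without DTP replicate 1, 2 or 3 or long washout replicate 1 or 2 (adjusted p 0.136 to 0.158). Without PC9 long washout replicate 3, which stood apart, STAT3 fell by 0.50 (adjusted p = 0.00180), IL6ST fell by 0.28 (adjusted p = 0.0286) and OSMR rose by 0.46 (adjusted p = 0.00199), in a fit that called 46.3% of all genes. That library had the most STAT3 and IL6ST and the least OSMR and SOCS3 of its group. STAT3 in the other 2 long washout libraries of PC9, at 169 and 164 CPM, lay between DMSO and DTPs. The other changes in long washout against DTPs ran from -0.41 to 0.96, none past the threshold with all libraries in, and the edgeR interaction test found no member whose washout change against DTPs differed between lines, for short (adjusted p 0.227 to 0.992, beside 0.0248% of all genes called) or long washout (adjusted p 0.277 to 0.983, beside 7.34%).

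In HCC827, 3 members were lowest in the same libraries. Replicate 1 of DTPs and of short washout, and replicate 3 of long washout, which deviated in the same direction across all genes (r = 0.694, 0.412 and 0.439 between pairs of them), were the lowest of their groups in SOCS2, SOCS3 and IL6R. SOCS2 was at 13.3, 14.1 and 11.0 CPM in these 3 libraries and between 18.8 and 33.4 CPM in the other 6. SOCS3 was at 22.5, 17.8 and 35.1 CPM in them, against 31.7 to 60.8 CPM in the others. IL6R was at 16.0, 16.9 and 20.3 CPM, against 24.9 to 35.4 CPM. The other members did not share this order. JAK2 was the highest of its group in short washout replicate 1 (16.7 CPM) and long washout replicate 3 (13.7 CPM). IL6ST was lowest in DTP replicate 1 (216 CPM) but highest in short washout replicate 1 (325 CPM). How many of all genes were lowest in the same libraries was not counted. The DTP and washout groups of HCC827 spread more widely in SOCS2, SOCS3 and IL6R than DMSO did, and what sets these libraries apart was not tested.

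**Figure D5:**
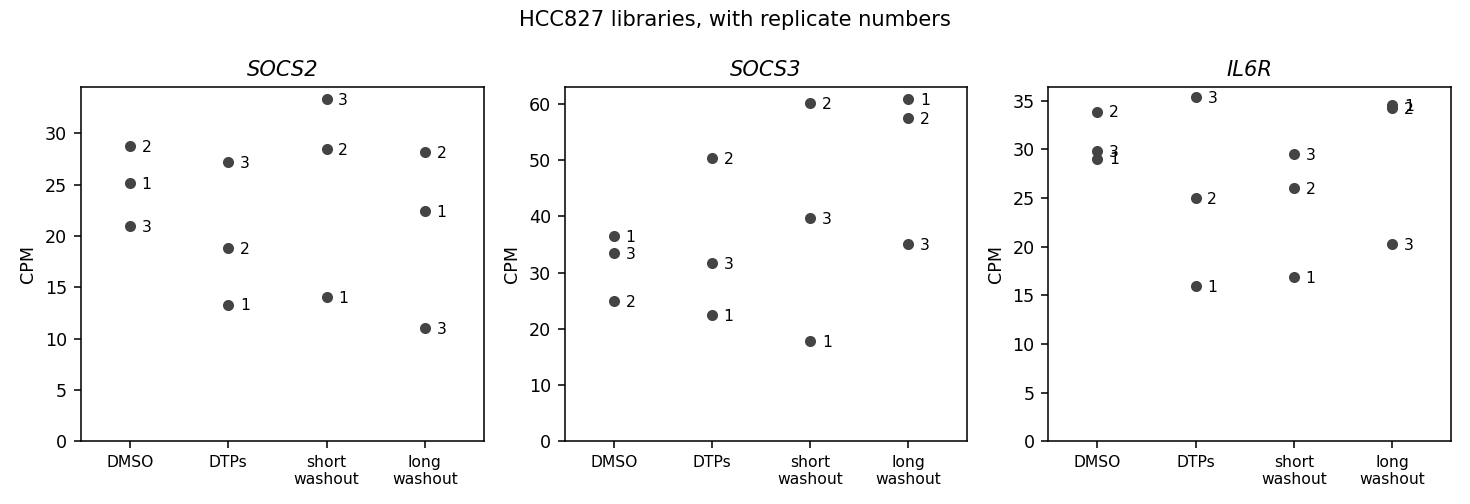
CPM of SOCS2, SOCS3 and IL6R in the HCC827 libraries of DMSO, DTPs, short washout and long washout, with 1 point per library and its replicate number beside it. Replicate 1 is lowest in DTPs and short washout and replicate 3 is lowest in long washout in all 3 genes.

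The other genes of the pathway were taken from 5 lists, of gp130 ligands, other receptors of the family, other JAK and STAT genes, other brakes on the pathway and known STAT3 target genes. Of the other JAK and STAT genes in DTPs, 6 of 8 rose and 0 fell in PC9 (median log2 fold change 0.82), 5 of 8 rose and 0 fell in HCC827 (median log2 fold change 0.46), 3 of 8 rose and 2 fell in H1975 (median log2 fold change 0.21) and 3 of 8 rose and 1 fell in HCC2935 (median log2 fold change 0.11). The medians over all genes tested were 0.018, 0.016, 0.011 and -0.0013 in the same order, and 71.3%, 36.7%, 45.7% and 52.5% of all genes were called in either direction. The count in PC9 is thus near that of genes in general, and the counts of the lists below are to be set beside the same shares. Of the STAT3 target genes in DTPs, 15 of 22 rose and 4 fell in PC9 (median log2 fold change 1.07), 2 of 25 rose and 3 fell in HCC827 (median log2 fold change -0.18), 8 of 24 rose and 5 fell in H1975 (median log2 fold change 0.13) and 5 of 22 rose and 7 fell in HCC2935 (median log2 fold change -0.21). Of the other receptors, 2 of 4 rose and 1 fell in PC9 (median log2 fold change 1.18), 1 of 4 rose and 0 fell in HCC827 (median log2 fold change 0.53), 2 of 5 rose and 0 fell in H1975 (median log2 fold change 0.54) and 2 of 3 rose and 1 fell in HCC2935 (median log2 fold change 0.96). Of the ligands, 2 of 7 rose and 3 fell in PC9 (median log2 fold change -0.56), 3 of 6 rose and 0 fell in HCC827 (median log2 fold change 1.02), 1 of 7 rose and 2 fell in H1975 (median log2 fold change -0.65) and 1 of 6 rose and 2 fell in HCC2935 (median log2 fold change -0.56). Of the other brakes, 5 of 13 rose and 4 fell in PC9 (median log2 fold change 0.02), 2 of 13 rose and 1 fell in HCC827 (median log2 fold change -0.20), 0 of 13 rose and 1 fell in H1975 (median log2 fold change 0.01) and 0 of 14 rose and 2 fell in HCC2935 (median log2 fold change -0.04). In the acute arm, the JAK and STAT genes gave rises only, in that 5 of 8 rose and 0 fell in PC9 (median log2 fold change 0.91), 6 of 8 rose and 0 fell in HCC827 (median log2 fold change 0.77), 4 of 8 rose and 0 fell in H1975 (median log2 fold change 0.69) and 3 of 8 rose and 0 fell in HCC2935 (median log2 fold change 0.36). Of the STAT3 target genes in the acute arm, 14 of 22 rose and 5 fell in PC9 (median log2 fold change 0.96), 9 of 25 rose and 2 fell in HCC827 (median log2 fold change 0.43), 4 of 22 rose and 2 fell in H1975 (median log2 fold change 0.32) and 3 of 22 rose and 8 fell in HCC2935 (median log2 fold change -0.26), with medians over all genes of 0.026, 0.0086, 0.031 and 0.0081. In that arm 68.5%, 42.3%, 44.9% and 47.1% of all genes were called in either direction, in the same order of lines.

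A few of these genes moved the same way in all 4 lines, as did 6.76% (higher) and 12.7% (lower) of all genes in the acute arm, 7.59% (lower) in DTPs, 1.41% (lower) between the acute arm and DTPs, and 2.46% (lower) in long washout. In the acute arm, the 5 largest began with MUC1, a mucin and STAT3 target, which rose by 5.13, 1.204, 3.13 and 0.48 in PC9, HCC827, H1975 and HCC2935. CD274, the immune checkpoint ligand PD-L1, was at -3.57, -1.68, -0.76 and -2.65. The rises of STAT2, JAK3 and IL11RA averaged 2.02, 1.66 and 1.55 over the lines. STAT2 acts in interferon signalling, JAK3 the kinase of receptors with the common gamma chain, and IL11RA the chain for interleukin-11. In DTPs, ICAM1, an adhesion molecule, JAK3 and STAT2 rose in every line (means 1.89, 1.67 and 1.52) and IL4R fell in every line (mean -0.97). Between the acute arm and DTPs, STAT6 and the phosphatase gene PTPN6 fell in every line (means -0.83 and -0.82). STAT6 had been higher than in DMSO in the acute arm of every line (mean 1.00). In long washout against DMSO, ICAM1 and JAK3 were still higher (means 1.66 and 1.27) and IL4R still lower (mean -0.59) in all 4 lines.

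Ligand levels are given because the receptor genes above need them, and were chosen after their values were seen. LIF RNA was between 20.6 and 53.1 TPM on average in the DMSO arms, and in DTPs it fell by 0.89 in PC9 and by 0.93 in HCC2935, rose by 0.70 in HCC827 and was at -0.07 in H1975 (adjusted p = 0.679). IL6 rose in DTPs of PC9, from a mean of 3.17 to 22.8 TPM (log2 fold change 2.60, adjusted p = 0.000111), and of HCC827, from 9.67 to 37.6 TPM (1.94, adjusted p = 0.0153). In H1975 it was at 6.85 TPM in DMSO and 4.33 TPM in DTPs, and in HCC2935 it did not pass the filter on low counts. OSM, the ligand of OSMR, averaged at most 0.170 TPM in any DMSO or DTP group, H1975 included. CTF1 (cardiotrophin-1), which like LIF signals through LIFR and gp130, rose in DTPs of PC9, from a mean of 2.47 to 12.6 TPM (log2 fold change 2.08, adjusted p = 1.43e-06), and of H1975, from 2.72 to 10.4 TPM (1.95, adjusted p = 0.000318). In HCC2935 CTF1 was at 12.05 TPM in DMSO and 15.4 TPM in DTPs (0.18, adjusted p = 0.341), and in HCC827 it did not pass the filter. CLCF1, another ligand of the family, averaged 29.8 to 58.1 TPM in the DMSO arms and fell in DTPs of H1975 by 0.66 (adjusted p = 0.00411) and of HCC2935 by 0.69 (adjusted p = 0.0178). IL11 fell in DTPs of H1975, from a mean of 34.4 to 4.45 TPM (-2.94, adjusted p = 0.000397), and passed the threshold in DTPs of no other line. CNTF averaged at most 1.76 TPM in the DMSO and DTP groups.

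The genes whose course over the 20 groups was most like that of each member were sought among 13805 genes, by Pearson's r of group means of log2 CPM centred within each line. For STAT3 they were YPEL5 (r = 0.943) and NCSTN (r = 0.941), for JAK1 CFAP57 (r = 0.929) and ACKR2 (r = 0.909) and for LIFR MINDY3 (r = 0.896) and TRAPPC6B (r = 0.885). For OSMR they were DYM (r = 0.913) and DDAH1 (r = 0.899), for SOCS2 STK33 (r = 0.937) and TMEM192 (r = 0.899) and for SOCS3 NTSR1 (r = 0.876) and SLC12A7 (r = 0.847). SOCS1 gave ZNF655 (r = 0.908) and CPT1A (r = 0.881), JAK2 SHC3 (r = 0.878) and RAB23 (r = 0.867), IL6R RAB34 (r = 0.882) and MFSD13A (r = 0.876) and IL6ST AMPD2 (r = 0.893) and TMEM185A (r = 0.887). Among the members themselves, STAT3 went with JAK1 (r = 0.846) and IL6ST (r = 0.609), SOCS3 with OSMR (r = 0.676), and IL6R ran against JAK2 (r = -0.696). These are descriptions over groups that share libraries and drug, and genes picked as the most alike of so many are alike in part by that choice.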

How the data were processed

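RNA was sequenced as Illumina TruSeq mRNA libraries on a HiSeq4000. The submitters' processing notes name HISAT2 2.1.0, Salmon 0.8.2 and hg38, without saying which made which values, and the annotation is not given in the sources used here. The authors deposited estimated counts per gene, not normalized, and log2 values of TPM with 0.01 added, both for 19712 genes in all 60 libraries. The 10 genes, the pathway lists and the tests were chosen with earlier results of these data known.

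Here the estimated counts were rounded and tested with edgeR 4.0.16 (TMM, filterByExpr, quasi-likelihood F-test, called at an adjusted p under 0.05 by Benjamini-Hochberg over all genes) in R 4.3.3, in 24 fits of 6 libraries within a line. Differences between lines were the interaction of line and arm over 24 libraries. Printed CPM used TMM factors over all 60 libraries, and printed TPM are the deposited log2 values turned back to the linear scale. SE is the log2 fold change divided by the square root of F. The alternatives were limma 3.58.1 on log2 TPM, DESeq2 1.42.0, scaling by RLE or by library size alone, a filter of 10 counts per library or none, a replicate block, fits of all 15 libraries of a line, and leaving out each library. Leaving out the 3 libraries that stood apart was added after seeing the data. Scripts were tested on simulated data.

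Samples were grouped by the labels, which call the 3 libraries of a group biological replicates. Libraries held 17.7 to 49.1 M counts, and replicates differed by 5.76 to 45.3 times the counting error (median 11.0 over 60 pairs, all genes together). Libraries with the same number deviated together, with each of 3 correlations over 0.1, in HCC827 short washout against DTPs (0.402 to 0.694), H1975 short washout against DTPs (0.249 to 0.599) and HCC2935 acute against DMSO (0.126 to 0.357), and blocked values are given there where they change a call. Per-library values were printed for genes past a log2 fold change of 1, STAT3, SOCS3, IL6R and IL6ST, and genes of the other lists were named where all 4 lines called them in 1 direction, at most 5 in a comparison. Promoter windows and positions came from RefSeq (GRCh38.p14) and GENCODE release 29.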

Additional observations from a re-analysis of the deposited data

Results flagged for a closer look

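The changes below were marked because the 4 lines did not respond alike, by edgeR's test of the interaction of line and arm over 24 libraries, adjusted over all genes. Under acute osimertinib, the adjusted p was 2.65e-07 for OSMR, 3.41e-06 for SOCS2, 6.38e-06 for SOCS3, 9.69e-06 for STAT3, 1.77e-05 for JAK1, 0.000179 for LIFR and 0.00422 for SOCS1, where 40.5% of all genes passed the same test. In DTPs against DMSO, the adjusted p was 3.69e-09 for OSMR, 9.31e-08 for SOCS2, 1.27e-05 for SOCS3, 2.61e-05 for SOCS1, 6.5e-05 for STAT3, 0.00223 for JAK1, 0.00467 for LIFR and 0.0261 for IL6ST, where 61.6% of all genes passed the same test. Between DTPs and the acute arm, the adjusted p was 2.89e-06 for LIFR, 9.73e-05 for JAK1, 0.0001 for SOCS1, 0.00172 for STAT3, 0.00254 for SOCS2 and 0.0161 for OSMR, where 52.4% of all genes passed the same test. In long washout against DMSO, the adjusted p was 1.4e-08 for OSMR, 1.62e-06 for SOCS1, 3.64e-06 for SOCS2, 1.53e-05 for SOCS3, 0.000778 for LIFR and 0.0259 for JAK1, where 52.4% of all genes passed the same test. The comparisons share the DMSO, acute or DTP libraries, so these results are not independent of each other. SOCS2, SOCS3 and OSMR moved in opposite directions in PC9 and H1975 in DTPs, with all 3 libraries of each arm apart from DMSO in both lines. SOCS1 did so in the other sense, higher in PC9 and lower in H1975. How many of all genes moved in opposite directions in PC9 and H1975 was not counted. In DTPs against DMSO, 71.3% of all genes were called in PC9 and 45.7% in H1975. LIFR passed the threshold in the acute arm of HCC2935 alone of the 4 lines, then fell there towards DTPs while it rose in the other 3 lines. STAT3 was above DMSO in DTPs of all 4 lines by different sizes, and between DTPs and the acute arm it was at -0.23 in PC9 and in HCC827, 0.15 in H1975 and 0.23 in HCC2935, of which only PC9 passed the threshold.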

How the results depend on the processing

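Of the 240 changes tested (10 genes, 6 comparisons, 4 lines), 83 were called. DESeq2 lost 0 of these calls and added 7, RLE size factors lost 1 and added 0, library size only lost 5 and added 7, no filter on low counts lost 4 and added 1, at least 10 counts in every library lost 1 and added 2, limma on log2 TPM, which tested 234 of the changes, lost 10 and added 6, and a fit of all 15 libraries of a line lost 9 and added 10. The replicate block lost 14 and added 7, which includes the calls in H1975 and HCC2935 given above, and where numbers do not pair the libraries it is only a check. The sign of a called change turned once, for STAT3 between DTPs and the acute arm in PC9, which was 0.0299 with limma on log2 TPM.

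The count of members called in short washout against DTPs, 1, became 0 with limma, 0 in the fit of all 15 libraries and 4 with the replicate block. The count in long washout against DTPs, also 1, became 0 with RLE size factors, 0 with library size only, 0 with no filter, 0 with at least 10 counts in every library, 0 with limma, 0 with the replicate block and 3 without the libraries that stand apart. The cause of these changes was not tested. Leaving out 1 library at a time gave 15 to 18 calls in the acute arm, 24 to 27 in DTPs, 12 to 16 between DTPs and the acute arm, 0 to 2 in short washout, 0 to 3 in long washout against DTPs and 20 to 24 in long washout against DMSO. The members that differed between lines then numbered 7 to 8, 7 to 9, 6 to 8, 0, 0 to 1 (1 without PC9 long washout replicate 3) and 5 to 7 in the same order, and 9 to 10 under DMSO.

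Of the calls in DTPs against DMSO, 73.1% were rises, and 83.3% with limma. Between DTPs and the acute arm the share was 66.7%, and 76.9% with library size only. These shares are to be set beside the rises among all genes called, given with the member counts above. The median of all genes shifted by up to 0.158 (log2) with library size only, 0.242 with limma and 0.125 with DESeq2, each in PC9, so changes of that size in PC9 depend on the scaling. With 3 libraries an arm, a change that missed the threshold is not shown to be absent.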
